A study of Mus musculus with 468 samples.

Results

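Dusp1, Dusp4, Dusp5 and Dusp6 encode MAP kinase phosphatases, and their expression was followed across every adipose depot, mouse model, dose and day of a study of FGF21 treatment. Members were the probe sets whose platform annotation carries 1 of these 4 gene symbols, which were 6 of the 43681 probe sets on the array (4 of 21931 genes with a symbol). Where a gene had more than 1 probe set, the one with the highest mean log2 intensity over all 468 arrays was the main one. This was the only probe set of Dusp1 (merck-NM_013642_at) and of Dusp6 (merck-NM_026268_at), merck-AK012530_at for Dusp4 and merck-XM_983450_at for Dusp5. A further probe set of Dusp4 (merck-NM_176933_s_at) and of Dusp5 (merck-AK153769_at) served as a check. In GRCm38.p6, Dusp1 lies at chr17:26505591-26508472, Dusp4 at chr8:34807610-34819894, Dusp5 at chr19:53529145-53541809 and Dusp6 at chr10:99263231-99267489.

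RNA of brown adipose tissue (BAT) and of inguinal (IWAT), epididymal (EWAT) and retroperitoneal (RPWAT) white adipose tissue was measured on custom Affymetrix mouse arrays. The mice were males of 3 models: C57BLKS/J mice lacking a functional leptin receptor (db/db) on chow (db/db-chow), wild type C57BL/6 mice fed a diet high in fat (WT-HFD) and the same strain fed chow (WT-chow). At 8 weeks of age they received subcutaneous WT FGF21 (1.25 mg/kg BID), a long-acting FGF21 variant carrying polyethylene glycol (PEG30-FGF21 Q108, 0.75 or 2.5 mg/kg BIW) or saline vehicle, for 5 or 2 days, which gave 96 groups of 3 to 5 arrays. The db/db mice also differ from the wild type mice in strain background, supplier and the chow product they were fed, so differences between db/db-chow and WT-chow mice cannot be told apart from these. Collection followed the final injection by about 30 h in mice given PEG30-FGF21 Q108 and by about 6 h in mice given WT FGF21 or vehicle, so the effect of PEG30-FGF21 Q108 and that of the time since injection cannot be told apart. For the same reason, and because doses and schedules differed, values of WT FGF21 and PEG30-FGF21 Q108 are set side by side without a test.

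FGF21 acts on adipocytes through an FGF receptor and its co-receptor β-Klotho, which pass the signal through FRS2 and RAS to the kinase ERK. MAP kinase phosphatases switch ERK, p38 and JNK off by removing phosphate from the threonine and tyrosine of the activation loop, and many of their genes are themselves induced by the kinases they inactivate, which makes them part of negative feedback. Dusp6 is cytoplasmic and Dusp5 nuclear, and both act on ERK with high selectivity. Dusp4 and Dusp1 are nuclear and act on ERK, JNK and p38, and Dusp1 is also a classic immediate early gene that responds to stress and glucocorticoids.

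Promoters are shown because the members did not move together. The sequences are from RefSeq on GRCm38.p6 and run 5′ to 3′ from 250 bases before to 50 bases after the annotated start, and 3 of the 4 members had an entry: chr10:99262981-99263280 (plus strand) for Dusp6, chr19:53528895-53529194 (plus strand) for Dusp5 and chr17:26508423-26508722 (minus strand) for Dusp1. Capitals mark matches on either strand to the cAMP response element (TGACGTCA), to its core alone (TGACG, or CGTCA on the other strand), to the AP-1 site (TGANTCA), to the ETS site (CCGGAAG) or to the CArG box bound by serum response factor.
Dusp6: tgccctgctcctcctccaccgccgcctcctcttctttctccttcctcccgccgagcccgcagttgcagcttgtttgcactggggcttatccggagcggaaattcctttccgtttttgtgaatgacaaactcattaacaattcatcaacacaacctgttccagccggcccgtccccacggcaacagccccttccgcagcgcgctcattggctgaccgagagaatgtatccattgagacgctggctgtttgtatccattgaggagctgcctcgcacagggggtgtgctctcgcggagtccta
Dusp5: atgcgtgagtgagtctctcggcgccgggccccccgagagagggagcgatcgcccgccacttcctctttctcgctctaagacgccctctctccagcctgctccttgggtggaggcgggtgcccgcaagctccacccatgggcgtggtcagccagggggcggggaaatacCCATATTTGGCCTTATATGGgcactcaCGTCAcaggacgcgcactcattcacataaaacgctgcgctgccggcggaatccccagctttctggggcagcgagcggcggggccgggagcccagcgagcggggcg
Dusp1: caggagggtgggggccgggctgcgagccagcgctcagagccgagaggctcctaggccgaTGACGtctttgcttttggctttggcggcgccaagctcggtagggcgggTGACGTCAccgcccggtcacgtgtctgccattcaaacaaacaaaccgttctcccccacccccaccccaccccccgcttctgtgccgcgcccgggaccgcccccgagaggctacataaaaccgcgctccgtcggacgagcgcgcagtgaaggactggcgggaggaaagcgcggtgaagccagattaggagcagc
The Dusp1 promoter held 1 full cAMP response element at -143 to -136 from the start site, which also contains 2 of its 3 core matches, with the other at -191 to -187. The Dusp5 promoter held 2 adjacent CArG boxes at -82 to -73 and -72 to -63, and 1 core match at -55 to -51. In the Dusp6 window none of these letters were found, nor was a GC box (GGGCGG), of which Dusp1 held 3 and Dusp5 held 1. Among 32851 mouse promoters of the same length, 1.79% held the full cAMP response element, 20.8% its core, 7.81% the AP-1 site, 8.86% the ETS site, 1.63% a CArG box and 35.7% a GC box. These matches are descriptions of the sequence and were not tested for binding.

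In vehicle-treated mice the brown fat marker Ucp1 had a median intensity of 8924.5 in BAT, against 356.4 in IWAT, 26.88 in EWAT and 1240.5 in RPWAT, and the adipocyte hormone gene Adipoq had medians of 5245 in BAT, 11550 in IWAT, 6361 in EWAT and 6595 in RPWAT, with 4777 on its lowest array. Of the 468 arrays, 2 of IWAT stood apart from the others of their depot and model (median correlation of 0.882 for vehicle replicate 2 of db/db-chow mice at 2 d and 0.898 for WT FGF21 replicate 3 of WT-HFD mice at 5 d). Calls against vehicle that rest on them are given with and without them. The intensities were normalised separately for each depot and model, so a treatment was compared only with vehicle of the same depot, model and day, giving 72 comparisons that share their vehicle arrays within each depot, model and day. A probe set was called changed at a Benjamini-Hochberg adjusted p under 0.05 in limma over all 43681 probe sets. Over all 72 comparisons, 2.41% of probe set tests were called higher and 1.95% lower. In bulk tissue, fewer cells of a type and less RNA per cell cannot be told apart. The labels give the replicates only a number. The methods give 5 animals per treatment group, and no group of a depot had more than 5 arrays. The p-values are therefore read as measuring the spread between mice within a depot.

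Dusp4 rose with FGF21 in 67 of 72 comparisons and was numerically higher in all 72, with changes of 0.32 to 2.90 on the log2 scale (median 1.5, SE 0.17 to 0.30). In 66 comparisons every treated array was above every vehicle array, against 2.7% of all probe set tests. By depot, 16 of 18 comparisons were called in BAT (against 4.71% of all probe set tests there), 18 of 18 in IWAT (2.24%), 16 of 18 in EWAT (1.2%) and 17 of 18 in RPWAT (1.49%). The largest change was a 7.48-fold rise in IWAT of WT-chow mice after 2 d of WT FGF21.

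With WT FGF21 at 2 d in IWAT of WT-chow mice, Dusp4 had intensities of 2245, 2748, 1859, 2475 and 2368, against 235.9, 307, 411.8, 289.1 and 332.9 with vehicle. With PEG30-FGF21 Q108 at 2.5 mg/kg the arrays read 1922, 1972, 2206, 2069 and 2022. The treated arrays stood far above the vehicle arrays in each case, and the log2 changes were 2.90 (SE 0.20, adjusted p = 6.2e-22) and 2.71 (SE 0.20, adjusted p = 5.6e-20). At 0.75 mg/kg the arrays were more spread, at 1171, 2409, 1480, 1717 and 1570, and the change was 2.39.

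The same high dose at 2 d in the other depots of WT-chow mice gave the same separation. In BAT, Dusp4 read 2082, 1868, 1864, 2094 and 1869 with PEG30-FGF21 Q108 at 2.5 mg/kg, against 652.4, 658.3, 505.9, 527.5 and 674.8 with vehicle (log2 change 1.7, SE 0.17, adjusted p = 2e-12). In EWAT the 4 treated arrays read 1762, 1242, 1328 and 1400, against 208.8, 300.7, 296.2, 250.2 and 219 with vehicle (2.49, SE 0.25, adjusted p = 1.4e-12), the largest change of that depot. In RPWAT the 4 treated arrays read 1180, 1333, 1510 and 1300, against 285.1, 348.4, 351.8, 249.9 and 400.1 with vehicle (2.04, SE 0.26, adjusted p = 4.7e-08). No treated array overlapped a vehicle array in any of them. The largest change of RPWAT came at 5 d of the same dose, where Dusp4 read 1573, 1942, 1873, 1646 and 2086, against 268.1, 385.7 and 250.2 in the 3 vehicle arrays (2.62, SE 0.28, adjusted p = 6e-11). The largest change of BAT came with WT FGF21 at 2 d in WT-chow mice, where Dusp4 read 1960, 2165, 2308, 2178 and 1838 (1.80, SE 0.17, adjusted p = 2.3e-13).

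**Figure D1:**
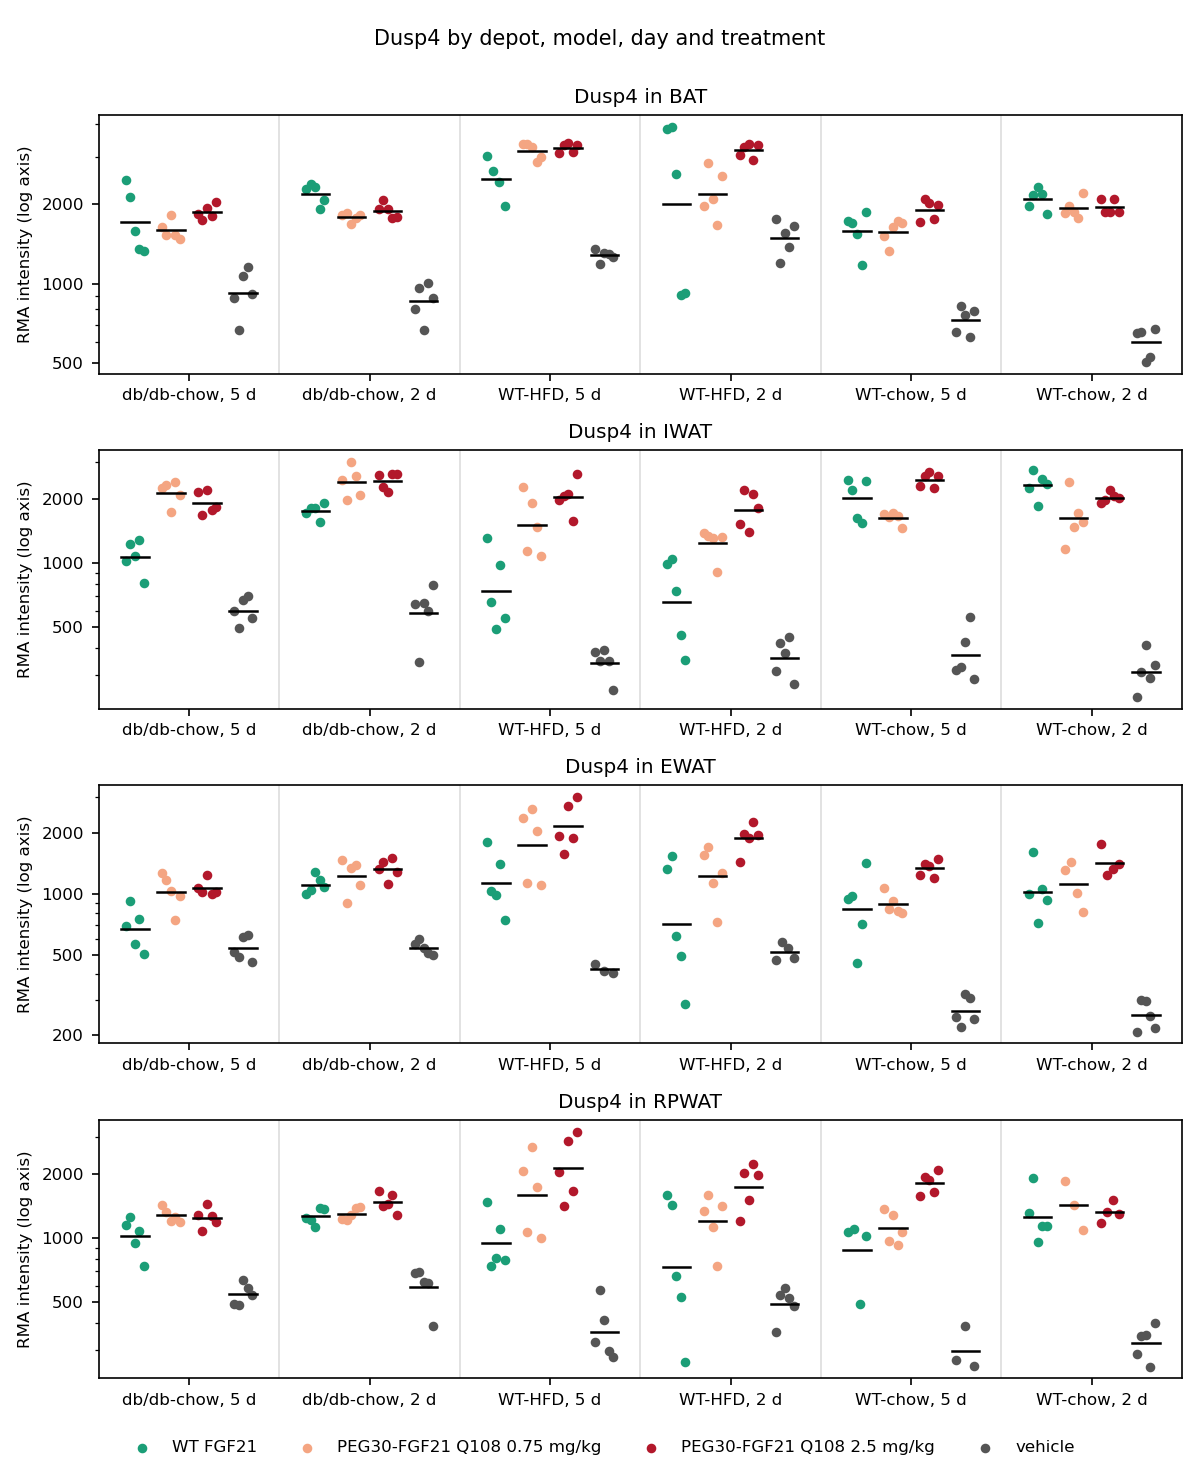
Dusp4 intensity (log axis) on each array by depot (panels), model and day (blocks) and treatment (colours), with a bar at the geometric mean of each group of 3 to 5 arrays. Treated arrays sit above vehicle arrays in 66 of 72 comparisons, and WT FGF21 arrays of WT-HFD mice at 2 d are the most spread.

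The 5 comparisons of Dusp4 that were not called were WT FGF21 at 2 d in WT-HFD mice in BAT (0.43), EWAT (0.46) and RPWAT (0.58), PEG30-FGF21 Q108 at 0.75 mg/kg at 2 d in BAT of WT-HFD mice (0.55, adjusted p = 0.09) and WT FGF21 at 5 d in EWAT of db/db-chow mice (0.32, adjusted p = 0.73). WT FGF21 at 2 d in WT-HFD mice was the most spread treatment. In BAT its arrays read 3842, 3895, 2596, 902.9 and 917.5, against 1757, 1192, 1552, 1378 and 1645 with vehicle, so that 3 arrays were above and 2 below every vehicle array. In IWAT they read 989.5, 1047, 739.7, 459.6 and 350.8, against 311.1, 421.2, 379.4, 451 and 271.9 with vehicle (0.87, adjusted p = 0.018). Replicates 1 and 2 were the highest and replicates 4 and 5 the lowest in each of the 4 depots. The IWAT call was lost without treated replicate 1 or 2 (adjusted p = 0.15 and 0.22) and without vehicle replicate 1, 3 or 5 (up to 0.058), while BAT was called without treated replicate 4 or 5 (adjusted p = 0.001 and 0.0012) and RPWAT without treated replicate 5 (0.016).

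Among the 67 calls, 8 were lost when some single array was left out. Besides IWAT of WT-HFD mice above, these were 4 comparisons in EWAT, 2 in RPWAT and 1 in IWAT, all of db/db-chow mice. The least stable was WT FGF21 at 2 d in EWAT of db/db-chow mice, which was called at an adjusted p of 0.034 and passed 0.05 without any 1 of its 10 arrays (up to 0.1). The other EWAT losses were PEG30-FGF21 Q108 at 0.75 mg/kg at 2 d without treated replicate 4 (0.07) and at 5 d without vehicle replicate 2 (0.15), 1 or 5 or treated replicate 1, 2 or 3 (0.058 to 0.1), and 2.5 mg/kg at 5 d without treated replicate 3 (0.061). In RPWAT at 2 d, WT FGF21 lost its call without vehicle replicate 3 or 5 or treated replicate 4 or 5 (up to 0.091), and 0.75 mg/kg without vehicle replicate 5 (0.13) or treated replicate 3, 4 or 5. In IWAT at 5 d, WT FGF21 lost its call without vehicle replicate 2 (0.17), 1 or 5 or any treated replicate but 5 (up to 0.13). The log2 changes stayed between 0.77 and 1.15 in all of these.

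**Figure D2:**
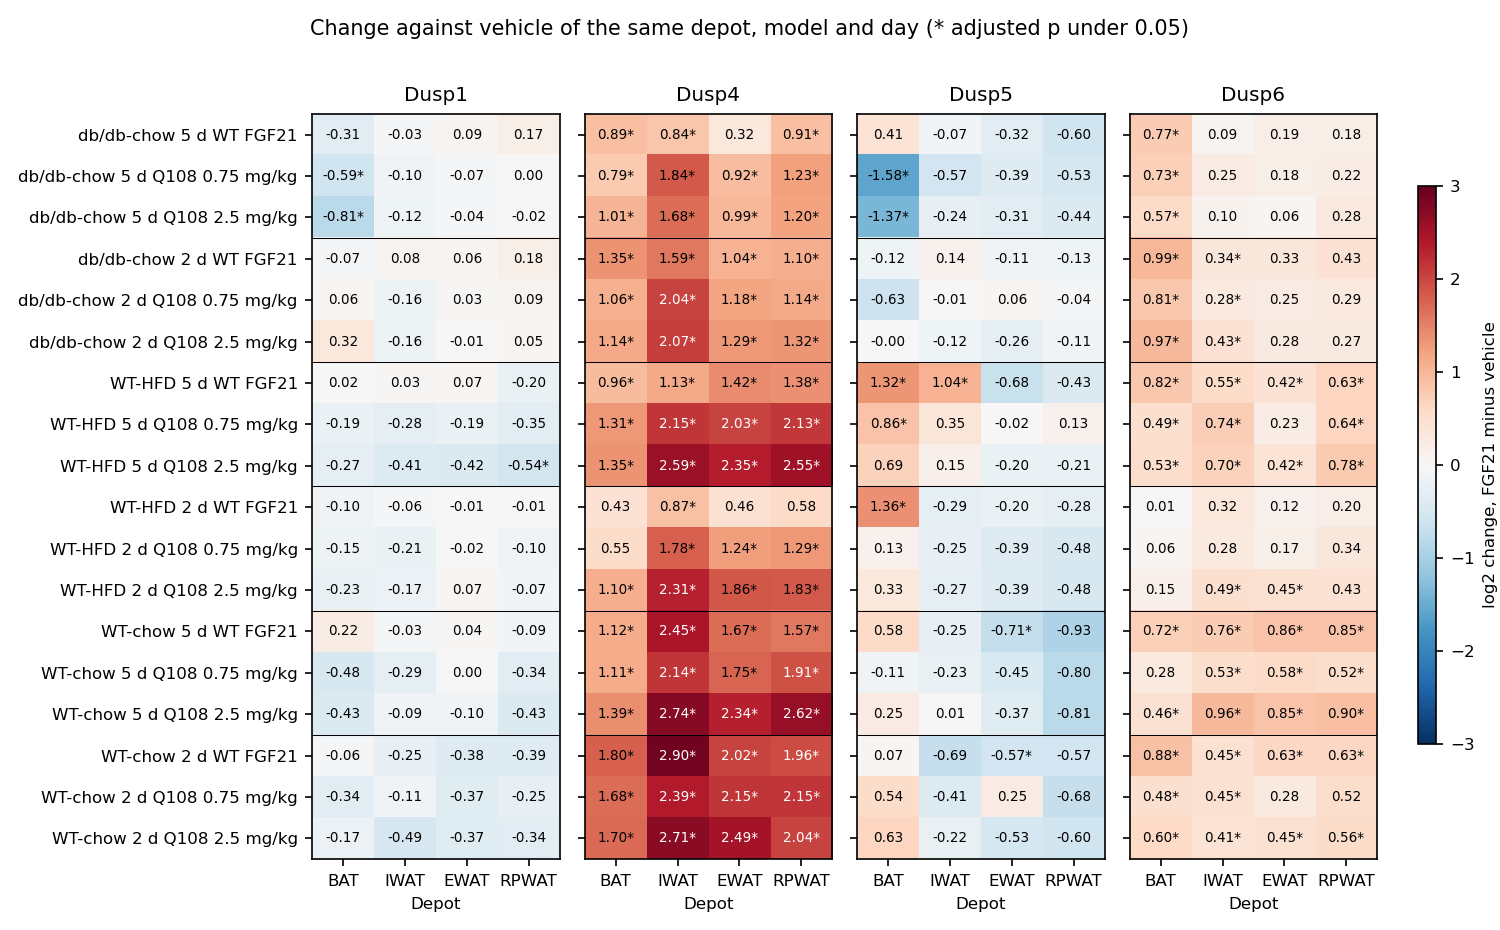
Log2 change of each gene against vehicle (colour and number) for 18 combinations of model, day and treatment (rows) in 4 depots (columns), with an asterisk where the adjusted p was under 0.05. Dusp4 carries 67 asterisks and Dusp6 43, all positive, whereas Dusp5 carries 8 of either sign and Dusp1 3, all negative.

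The models ranked by the median change of Dusp4 were db/db-chow (1.14, 23 of 24 called), WT-HFD (1.37, 20 of 24) and WT-chow (2.03, 24 of 24). The difference between models was tested for the response to 2.5 mg/kg, as db/db-chow or WT-HFD minus WT-chow, in 64 tests over the 4 genes, of which 5 were called (0.787% of all probe set tests). For Dusp4, 15 of 16 differences were negative (median -0.59), and 2 were called, both at 5 d. In EWAT the response was 0.99 in db/db-chow mice and 2.34 in WT-chow mice (difference -1.35, SE 0.33, adjusted p = 0.02). In RPWAT it was 1.2 in db/db-chow mice and 2.62 in WT-chow mice (-1.42, SE 0.37, adjusted p = 0.043). The other Dusp4 probe set gave differences of -0.999 and -1.197 there, also called, and -1.13 in EWAT at 2 d (adjusted p = 0.012). The vehicle levels of these groups were not alike, with medians over both days of 528.8 in db/db-chow and 248.75 in WT-chow mice in EWAT, and 601.65 and 316.75 in RPWAT, but these stem from sets normalised separately and were not tested.

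The higher dose of PEG30-FGF21 Q108 gave a larger Dusp4 change than the lower dose in 21 of 24 comparisons, by a median of 0.30, but no such difference was called, and 8 had an unadjusted p under 0.05. The 95% intervals of the 24 differences ran from -0.69 to 1.19. Over the 4 genes, 1 of 96 dose differences was called (0.0792% of all probe set tests), and it was for Dusp5. In EWAT of WT-chow mice at 2 d, Dusp5 was 0.79 lower at 2.5 mg/kg than at 0.75 mg/kg (SE 0.20, adjusted p = 0.048). By treatment, Dusp4 was called in 20 of 24 comparisons of WT FGF21 (median 1.12), 23 of 24 at 0.75 mg/kg (1.71) and 24 of 24 at 2.5 mg/kg (1.85). By day it was called in 35 of 36 comparisons at 5 d and 32 of 36 at 2 d, and none of its 36 differences between days was called, of which 11 had an unadjusted p under 0.05.

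The responses of BAT and of each WAT depot to 2.5 mg/kg were compared in 72 tests over the 4 genes, of which 16 were called (3.65% of all probe set tests). Between 6 and 11 were called when all arrays of 1 replicate number were left out, fewest without replicate 5. By the group size in the methods the depots of a group share mice, which this fit leaves out because the labels do not say which arrays come from the same mouse. Same-numbered arrays of a group in different depots deviated together slightly (mean correlation 0.061, against -0.015 for different numbers), and with these joined as a replicate block 27 differences were called, among them all 16, with 13 for Dusp4, 8 for Dusp6, 3 for Dusp5 and 3 for Dusp1. For Dusp4, 17 of 18 differences of BAT minus WAT were negative (median -0.86) and 8 were called. The largest was at 5 d in WT-chow mice, with a response of 1.39 in BAT and 2.74 in IWAT (-1.35, SE 0.31, adjusted p = 0.0017). This depended on the probe set, because the other Dusp4 probe set gave 1.98 in BAT and 2.71 in IWAT there (-0.74, adjusted p = 0.13). With it, 1 difference was called negative (-1.23 against IWAT of WT-chow mice at 2 d) and 1 positive (0.83 against EWAT of db/db-chow mice at 5 d). Over all treatments, days and models, Dusp4 rose by 1.15 in BAT, 2.01 in IWAT, 1.53 in EWAT and 1.61 in RPWAT by the main probe set (SE 0.06 to 0.09), and by 1.37, 1.63, 1.05 and 1.35 by the other (SE 0.06 to 0.07).

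Dusp6 rose in 43 of 72 comparisons and was numerically higher in all 72, but by less than Dusp4 did, with changes of 0.01 to 0.99 (median 0.45, SE 0.09 to 0.16). Calls were made in 14 of 18 comparisons in BAT (against 4.71% of all probe set tests called higher there), 13 in IWAT (2.24%), 8 in EWAT (1.2%) and 8 in RPWAT (1.49%). In 44 comparisons the groups did not overlap, against 2.7% of all probe set tests with treated arrays above vehicle. Averaged over all treatments, days and models the rise was 0.57 in BAT (SE 0.04), 0.45 in IWAT (0.03), 0.37 in EWAT (0.03) and 0.48 in RPWAT (0.05), with each adjusted p at or below 3.1e-15. The shares of probe sets called higher for this average were 14.1% in BAT, 7.33% in IWAT, 6.12% in EWAT and 7.76% in RPWAT, and those called lower 16.7%, 5.09%, 5.32% and 5.2%.

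The highest change of Dusp6 was in BAT of db/db-chow mice at 2 d, where the arrays read 974, 1028, 918.5, 1040 and 1033 with WT FGF21, against 479.9, 476, 488.9, 520.4 and 542.8 with vehicle (0.99, SE 0.13, adjusted p = 4.3e-09). At 2.5 mg/kg they read 904.2, 1009, 992.9, 968.2 and 1042 (0.97, adjusted p = 3.1e-09). The lowest treated array was well above the highest vehicle array. In BAT of WT-chow mice at 2 d, 2.5 mg/kg gave 1118, 992.8, 984.5, 1191 and 1099, against 758.6, 528.6, 721.1, 624.8 and 972.9 with vehicle (0.60, SE 0.13, adjusted p = 0.00063), where 1 vehicle array came close to the treated ones.

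After 5 d in IWAT of WT-chow mice, 2.5 mg/kg gave 2267, 2445, 2453, 2447 and 2271, against 1379, 1122, 1186, 1169 and 1258 with vehicle (0.96, SE 0.10, adjusted p = 5.7e-12). At 2 d the same dose gave 2000, 1918, 2548, 2054 and 1935, against 1638, 1424, 1593, 1521 and 1663 (0.41, SE 0.10, adjusted p = 0.027). The groups did not overlap on either day, but the call at 2 d was lost without treated replicate 3 (adjusted p = 0.22) and without vehicle replicate 2, 3 or 4 (0.066 to 0.11). In EWAT of WT-chow mice, the largest change was with WT FGF21 at 5 d, with 738.8, 646.5, 690.3, 782.2 and 592.8, against 420.4, 430.7, 408.4, 294.5 and 356.4 with vehicle (0.86, SE 0.09, adjusted p = 2.1e-12). At 2 d in EWAT, 2.5 mg/kg gave 512.6, 523.4, 546 and 541.4, against 447.6, 335.8, 381.4, 375.7 and 403.9 (0.45, SE 0.09, adjusted p = 0.00083). In RPWAT of WT-chow mice the same dose gave 795.1, 1082, 795.6, 799.6 and 855 at 5 d, against 366.9, 489.7 and 544.8 (0.90, SE 0.15, adjusted p = 1.4e-05). At 2 d it gave 665.9, 761, 732.2 and 778.2, against 441.5, 441.5, 628.6, 467 and 540 (0.56, SE 0.14, adjusted p = 0.013). Every treated array of EWAT and RPWAT was above every vehicle array in these comparisons, although the RPWAT call at 2 d was lost without treated replicate 5 (adjusted p = 0.061).

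**Figure D3:**
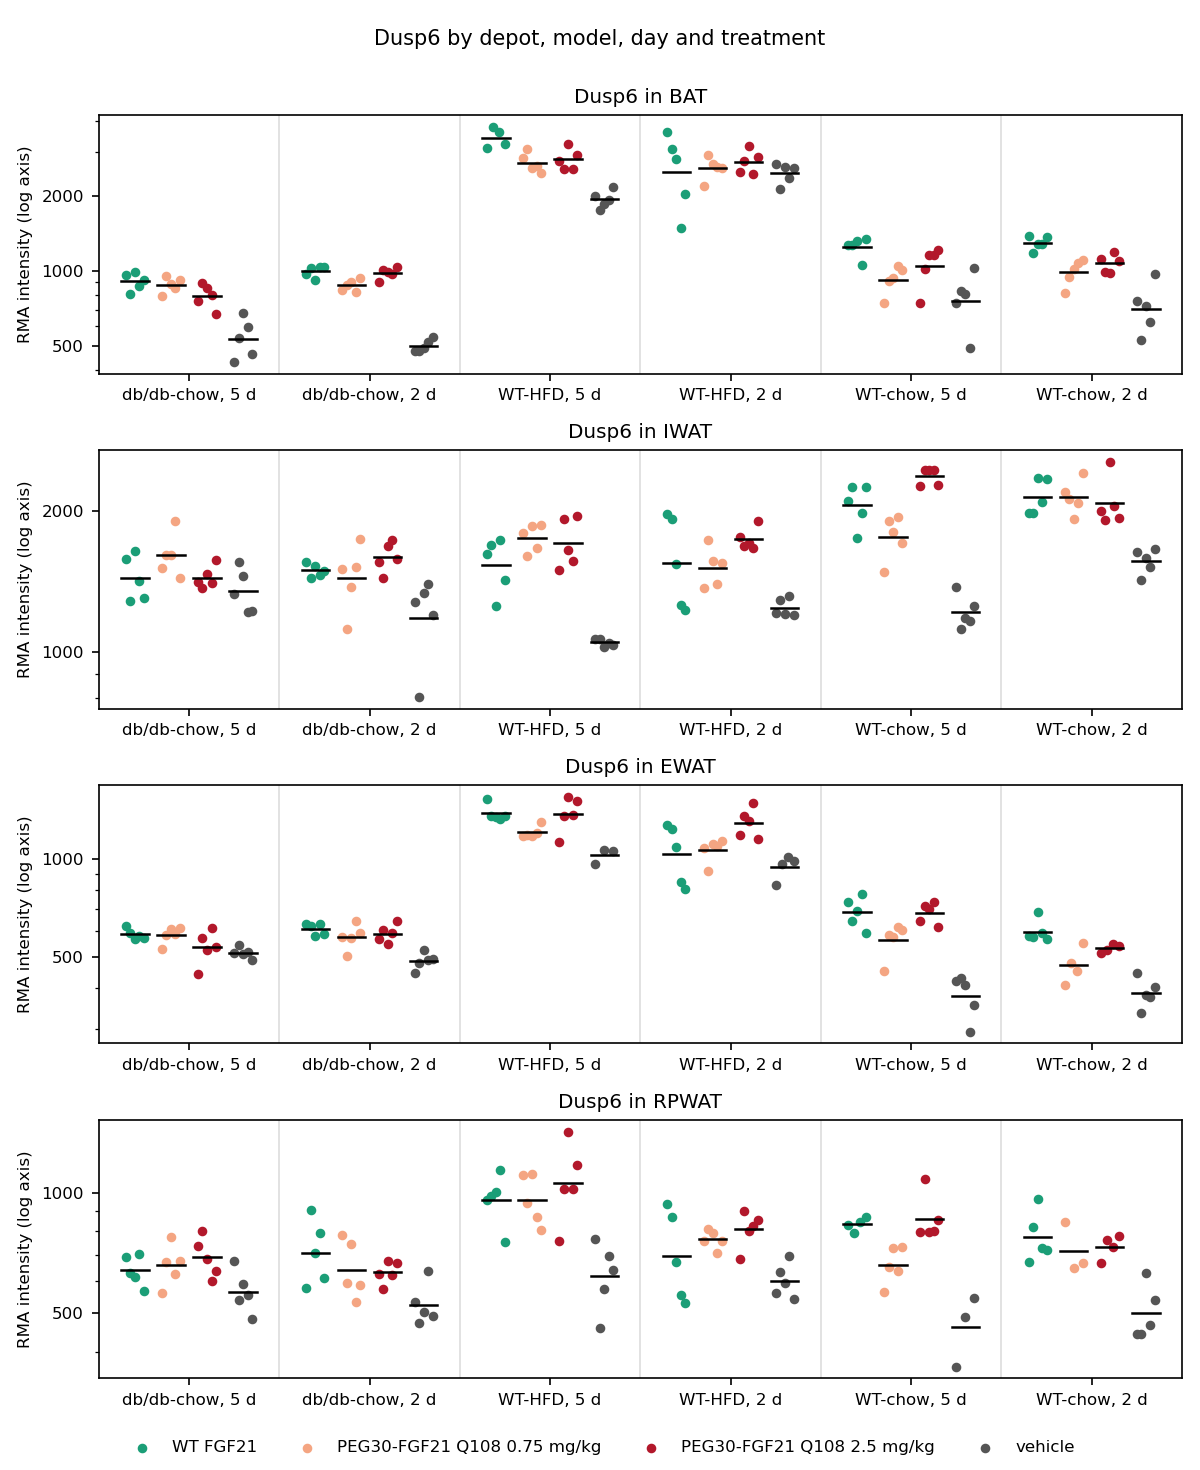
Dusp6 intensity (log axis) on each array by depot (panels), model and day (blocks) and treatment (colours), with a bar at the geometric mean of each group of 3 to 5 arrays. In db/db-chow mice 6 of 6 comparisons were called in BAT, whereas 0 of 6 were called in EWAT and in RPWAT. The treated BAT arrays of these mice lie above vehicle except at 5 d of 2.5 mg/kg, where the lowest treated array (673.7) is just below the highest vehicle array (676).

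The response of Dusp6 differed between models and depots. It was called in 9 of 24 comparisons of db/db-chow mice, 13 of WT-HFD mice and 21 of WT-chow mice. In db/db-chow mice all 6 BAT comparisons were called (0.57 to 0.99), against 3 of 6 in IWAT and 0 of 6 in EWAT and in RPWAT. The response to 2.5 mg/kg in db/db-chow mice at 2 d was 0.97 in BAT, against 0.43 in IWAT (difference 0.54, SE 0.16, adjusted p = 0.012), 0.28 in EWAT (0.69, SE 0.16, adjusted p = 0.0048) and 0.27 in RPWAT (0.70, SE 0.16, adjusted p = 0.0062). At 5 d it was 0.57 in BAT and 0.06 in EWAT (0.52, SE 0.16, adjusted p = 0.027). In WT-chow mice at 5 d the order was reversed between BAT, with 0.46, and IWAT, with 0.96 (-0.50, SE 0.16, adjusted p = 0.05). At 5 d the response to 2.5 mg/kg was 0.10 in db/db-chow and 0.96 in WT-chow mice in IWAT (-0.87, SE 0.14, adjusted p = 0.00039), and 0.06 and 0.85 in EWAT (-0.79, SE 0.13, adjusted p = 1.8e-05).

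The 3 Dusp6 calls in IWAT of db/db-chow mice, all at 2 d, rested on vehicle replicate 2, which read 803.9 while the other vehicle arrays read 1278, 1337, 1400 and 1203 and which is 1 of the arrays that stood apart. The arrays read 1562, 1438, 1528, 1466 and 1492 with WT FGF21 (0.34, adjusted p = 0.014), 1506, 1120, 1376, 1518 and 1745 at 0.75 mg/kg (0.28, adjusted p = 0.048) and 1562, 1438, 1686, 1739 and 1582 at 2.5 mg/kg (0.43, adjusted p = 0.0018). In the fit without the 2 arrays that stood apart the changes were 0.20, 0.14 and 0.29, with adjusted p = 0.46, 0.79 and 0.10, and none was called. The call at 0.75 mg/kg was also lost without treated replicate 1, 3, 4 or 5 (0.058 to 0.19). A single array also decided the calls in EWAT of WT-HFD mice at 5 d without vehicle replicate 1 (WT FGF21 adjusted p = 0.082, 2.5 mg/kg 0.07), in BAT of WT-chow mice without vehicle replicate 2 (0.75 mg/kg at 2 d, 0.069) or 4 (2.5 mg/kg at 5 d, 0.1). The 0.75 mg/kg calls of WT-chow mice in IWAT at 2 d and in RPWAT at 5 d were lost without any of several arrays (up to 0.15 without vehicle replicate 2 and 0.33 without vehicle replicate 1).

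In WT-HFD mice Dusp6 was called in 11 of 12 comparisons at 5 d and 2 of 12 at 2 d. The difference between days was called for WT FGF21 in BAT, with a response of 0.82 at 5 d and 0.01 at 2 d (0.81, SE 0.18, adjusted p = 0.0053). At 5 d the 4 treated arrays read 3100, 3772, 3599 and 3238, against 1995, 1759, 1855, 1925 and 2173 with vehicle. At 2 d they read 3620, 3097, 2801, 1489 and 2029, against 2676, 2135, 2605, 2364 and 2597. As with Dusp4, replicates 4 and 5 of WT FGF21 at 2 d were the lowest of their group in every depot. Over the 4 genes, 3 of 144 differences between days were called (0.514% of all probe set tests).

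Dusp5 changed in 8 of 72 comparisons, 4 higher and 4 lower, with changes of -1.58 to 1.36 (median -0.24). The lowest was in BAT of db/db-chow mice at 5 d, where the arrays read 131.7, 107.6, 139.6, 105.4 and 143.1 at 0.75 mg/kg, against 468.1, 288.2, 391.6, 336.4 and 401.6 with vehicle (-1.58, SE 0.27, adjusted p = 2.9e-06). At 2.5 mg/kg they read 137.6, 159, 164.6, 149.2 and 115.5 (-1.37, SE 0.27, adjusted p = 5.5e-05). All 10 arrays were below every vehicle array, while WT FGF21 gave 657.4, 402.7, 436.1, 690.1 and 368, which overlapped vehicle (0.41, adjusted p = 0.41). At 2 d, 2.5 mg/kg gave 197.3, 255, 299.9, 332.3 and 162.7, against 307, 102, 209, 305.4 and 410.4 with vehicle. The difference between days at this dose was called (-1.37, SE 0.39, adjusted p = 0.043), as were the difference between db/db-chow and WT-chow mice at 5 d (-1.62, SE 0.39, adjusted p = 0.0024) and those between BAT and IWAT (-1.13, SE 0.34) and BAT and EWAT (-1.06, SE 0.34) of db/db-chow mice at 5 d (adjusted p = 0.039 each).

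Dusp1 fell in 3 comparisons, 2 of them in the same tissue and mice as the falls of Dusp5. In BAT of db/db-chow mice at 5 d its arrays read 1594, 1812, 1744, 1731 and 1578 at 0.75 mg/kg (-0.59, SE 0.20, adjusted p = 0.025) and 1075, 1569, 1735, 1499 and 1459 at 2.5 mg/kg (-0.81, SE 0.20, adjusted p = 0.0015), against 3177, 2933, 2429, 2226 and 2129 with vehicle. No treated array reached the vehicle range, whereas WT FGF21 gave 2274, 1868, 2150, 1986 and 1992 (-0.31, adjusted p = 0.38). The call at 0.75 mg/kg was lost without vehicle replicate 1 or 2 (adjusted p = 0.087 and 0.066) or treated replicate 1 or 5 (0.051 each). At 2 d, 2.5 mg/kg gave 2322, 3031, 2493, 2207 and 2024, against 2360, 1863, 1863, 1843 and 1687, a change of 0.32 that was not called. The difference between days was -1.14 (SE 0.29, adjusted p = 0.019), and that between BAT and EWAT at 5 d was -0.77 (SE 0.26, adjusted p = 0.047).

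The third fall of Dusp1 was in RPWAT of WT-HFD mice at 5 d of 2.5 mg/kg, with 1142, 1308, 1334, 1787 and 1529, against 2289, 1665, 2019, 2099 and 2185 with vehicle (-0.54, SE 0.14, adjusted p = 0.01). The groups overlapped, and the call was lost without treated replicate 1 (adjusted p = 0.057). At 2.5 mg/kg at 2 d in WT-chow mice Dusp1 was not called in any depot. It read 742.9, 1266, 1132, 1493 and 1056 in BAT, against 707, 765.2, 2051, 1398 and 1956 with vehicle (-0.17). In IWAT it read 1555, 1860, 1999, 1784 and 1795, against 2475, 2169, 2846, 2395 and 2812, all below vehicle (-0.49, adjusted p = 0.41). In EWAT it read 730.5, 632.9, 916.4 and 886.3, against 795.2, 971.4, 1083, 1122 and 1121 (-0.37). In RPWAT it read 938.5, 963.1, 964.8 and 866.6, against 929.7, 1016, 1079, 1331 and 1668 (-0.34). Averaged over all treatments, days and models the change of Dusp1 was -0.20 in BAT (SE 0.07, adjusted p = 0.017), -0.16 in IWAT (adjusted p = 0.15), -0.09 in EWAT (adjusted p = 0.29) and -0.15 in RPWAT (SE 0.05, adjusted p = 0.035). For this average, 16.7% of all probe sets were called lower in BAT and 5.2% in RPWAT. The call in BAT was lost without the arrays of replicate 1 (adjusted p = 0.094) or 5 (0.082), and that in RPWAT without those of replicate 1 (0.17), 3 (0.052) or 5 (0.28).

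Calls lower of single probe sets made up 5.11% of all tests in BAT, 1.08% in IWAT, 0.793% in EWAT and 0.835% in RPWAT, against which the 4 lower calls of Dusp5 and 3 of Dusp1 are to be read. In BAT, calls higher made up 4.71%. These shares are over all 18 comparisons of a depot, not those of the single comparisons that follow. Other genes moved with Dusp1 and Dusp5 in BAT of db/db-chow mice at 5 d. Of 22 immediate early transcription factor genes, 18 fell at 0.75 mg/kg (median -1.33) and 19 at 2.5 mg/kg (-1.41), while with WT FGF21 1 rose and 5 fell (-0.28). Of 6 macrophage markers, 4 and 2 fell with the 2 doses and 1 rose with WT FGF21, with summed intensities of 1580 to 2201 at 0.75 mg/kg, 1997 to 2576 at 2.5 mg/kg and 3073 to 4347 with WT FGF21, against 2324 to 3532 with vehicle. Of 7 endothelial markers, 5 fell with WT FGF21 and at 0.75 mg/kg, and 6 fell and 1 rose at 2.5 mg/kg, with sums of 4305 to 5665 with WT FGF21, 4846 to 5526 at 0.75 mg/kg and 4877 to 5351 at 2.5 mg/kg, against 6692 to 7018 with vehicle. The part of these in the falls of Dusp1 and Dusp5 was not tested.

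**Figure D4:**
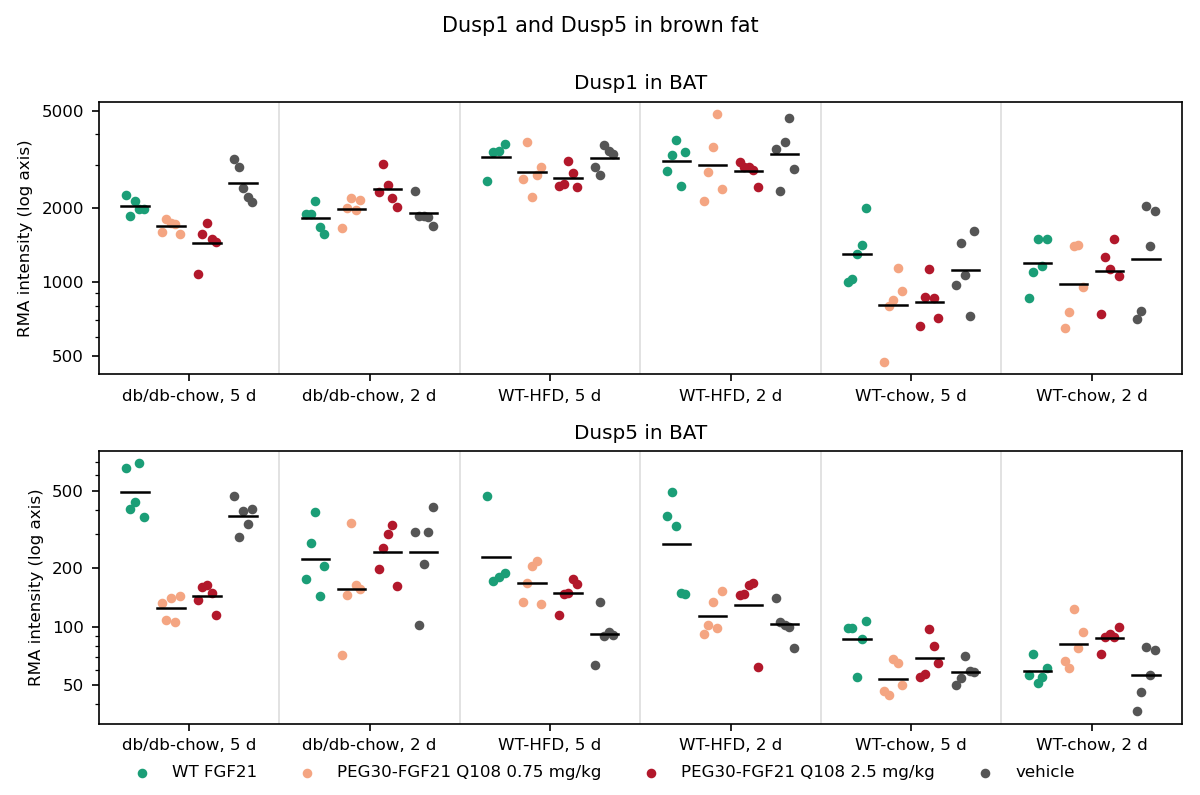
Intensity (log axis) of Dusp1 and Dusp5 on each BAT array by model and day (blocks) and treatment (colours), with a bar at the geometric mean of each group. In db/db-chow mice at 5 d the 10 arrays of PEG30-FGF21 Q108 lie below all 5 vehicle arrays for both genes, and in WT-HFD mice Dusp5 is higher with WT FGF21 at both days.

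The higher calls of Dusp5 were all in WT-HFD mice, in BAT and IWAT. In these mice every treatment left Dusp5 numerically below vehicle in EWAT on both days and in IWAT and RPWAT at 2 d, without a call. In BAT at 2 d it read 369.8, 494.5, 330.5, 149 and 147.9 with WT FGF21, against 141.1, 105.8, 102.3, 99.25 and 77.61 with vehicle (1.36, SE 0.27, adjusted p = 0.00013). At 5 d it read 468, 172.2, 180.8 and 189.6, against 63.84, 134.3, 89.31, 94.09 and 90.66 (1.32, SE 0.29, adjusted p = 0.00058), and 134, 168.4, 203.9, 217.3 and 130.2 at 0.75 mg/kg (0.86, adjusted p = 0.028). WT FGF21 did not overlap vehicle on either day, while the 0.75 mg/kg group did, and its call was lost without vehicle replicate 1 or 3 or treated replicate 3 or 4 (adjusted p = 0.054 to 0.11). In IWAT at 5 d it read 599.7, 587.2, 864.6, 981.8 and 871.6 with WT FGF21, against 259, 570.3, 349.1, 416.4 and 326.7 with vehicle (1.04, SE 0.25, adjusted p = 0.0043), and without the 2 arrays that stood apart the adjusted p was 0.0058.

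Beside these rises, 10 of 22 immediate early genes rose and 1 fell with WT FGF21 in BAT of WT-HFD mice at 2 d, 12 rose and 3 fell at 5 d, and 13 rose in IWAT at 5 d. Of 9 measured glucocorticoid-induced genes, 7, 6 and 3 rose in these comparisons. Over all 18 comparisons of a depot, 4.71% of probe set tests were called higher in BAT and 2.24% in IWAT. Those called lower were 5.11% and 1.08%. In IWAT all 7 endothelial markers fell (median -0.84), with sums of 3077 to 9640 with WT FGF21, against 10545 to 13816 with vehicle, and 1 of the 5 WT FGF21 arrays is among those that stood apart. The part of these in the rises of Dusp5 was not tested.

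Dusp5 fell in EWAT of WT-chow mice with WT FGF21. At 5 d it read 128.7, 113.5, 84.24, 121.9 and 84.93, against 147.4, 138.3, 203.8, 168 and 213 with vehicle (-0.71, SE 0.18, adjusted p = 0.0071). At 2 d it read 116.7, 98.45, 108.9, 128.2 and 104.5, against 132.3, 142.3, 143.2, 251.5 and 177.3 (-0.57, SE 0.18, adjusted p = 0.035). No treated array reached a vehicle array, but the 2 d call was lost without vehicle replicate 4 (adjusted p = 0.25) or 5 (0.083) or any treated replicate but 4 (0.052 to 0.098). Macrophage markers were higher with WT FGF21 at 2 d (4 of 6 called, sums of 4404 to 5399, against 3142 to 3569 with vehicle), and 4 of 7 endothelial markers fell at 5 d (sums of 4217 to 5357, against 5724 to 6677), and their part was not tested. Over all 18 EWAT comparisons, 1.2% of probe set tests were called higher and 0.793% lower.

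At 2.5 mg/kg at 2 d in WT-chow mice, Dusp5 was not called in any depot. It read 72.49, 88.26, 91.3, 88.45 and 99.08 in BAT, against 36.8, 45.98, 78.67, 56.29 and 75.83 with vehicle (0.63, adjusted p = 0.23). In IWAT it read 887.1, 369.8, 347.9, 525.2 and 497.4, against 679.4, 665.2, 629.1, 469.1 and 473.7 (-0.22). In EWAT it read 87.6, 115.4, 141.3 and 116.5, against 132.3, 142.3, 143.2, 251.5 and 177.3 (-0.53, adjusted p = 0.13). The groups overlapped in each. In RPWAT the 4 treated arrays read 160, 126.1, 123.3 and 126.7, against 127, 131.3, 218.4, 514.6 and 180.1 with vehicle (-0.60, adjusted p = 0.31).

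Averaged over all treatments, days and models, Dusp5 changed by 0.19 in BAT (SE 0.09, adjusted p = 0.12), -0.11 in IWAT (SE 0.08, adjusted p = 0.49), -0.31 in EWAT (SE 0.06, adjusted p = 0.0001) and -0.45 in RPWAT (SE 0.08, adjusted p = 3.5e-05). Of all probe sets, 5.32% were called lower for this average in EWAT and 5.2% in RPWAT. The RPWAT vehicle arrays of WT-chow mice included some that were high for Dusp5. At 5 d they read 154.7, 148.5 and 616.7, and at 2 d 1 array read 514.6 and another 218.4. The summed intensity of 7 kidney and adrenal markers, genes of organs that lie beside this depot, was 9963 on the array with 616.7, against 1411 and 2921 on the others at 5 d, and 9381 and 12283 on the arrays with 514.6 and 218.4, against 241 to 5467 on the others at 2 d. None of the 7 was called in the average over RPWAT comparisons (median -0.83), and their part in the Dusp5 values was not tested. Other marker sums also varied between these vehicle arrays, and neither they nor the kidney and adrenal sum followed the order of Dusp5. The other sums ran from 579 to 52365 for skeletal muscle and from 726 to 16431 for brown adipocytes. With WT FGF21 at 5 d Dusp5 read 115.6, 139, 154.2 and 103.7 there (-0.93, adjusted p = 0.074), which was called without vehicle replicate 1 or 3, but had an adjusted p of 0.82 without the array with 616.7.

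The 2 probe sets of Dusp5 did not give the same picture. The other probe set was dim, with intensities of 8.153 to 33.49 in FGF21-treated BAT, and was called in 1 of 72 comparisons, as lower, with changes of -0.47 to 0.46. For 6 of the 8 Dusp5 calls its change had the opposite sign, and none of the 8 was called with it, including BAT of db/db-chow mice at 5 d, with 0.20 at 0.75 mg/kg and 0.01 at 2.5 mg/kg. The other probe set of Dusp4 was called higher in 63 of 72 comparisons, with changes of 0.02 to 2.71 (median 1.38).

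**Figure D5:**
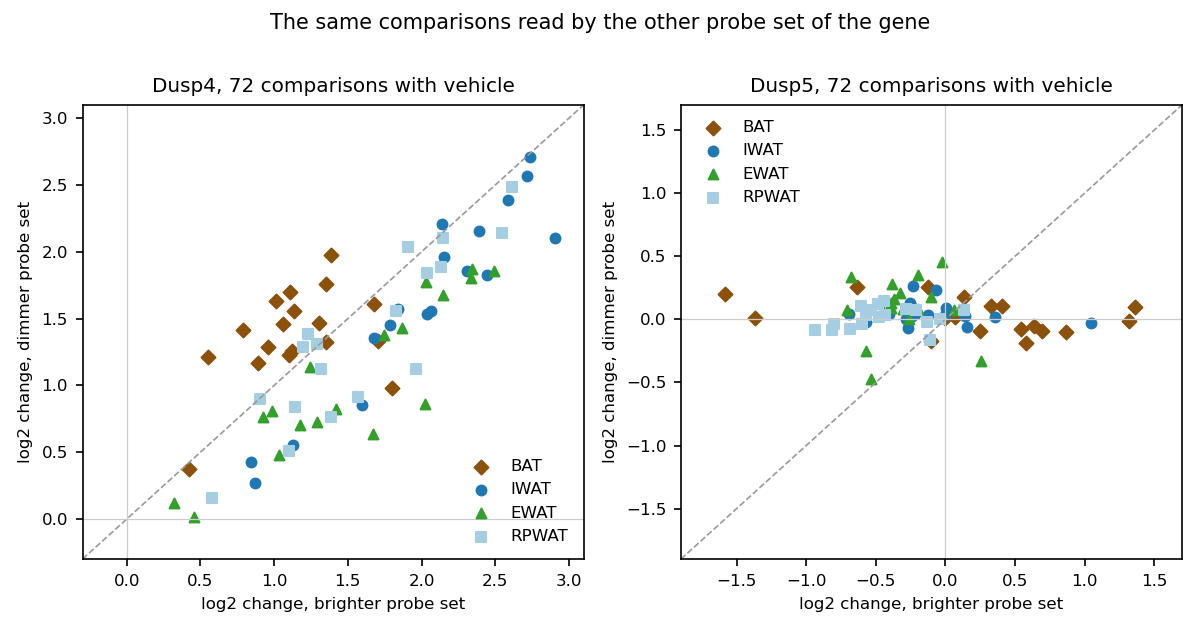
Log2 change against vehicle by the dimmer probe set (y axis) and the brighter probe set (x axis) of Dusp4 and Dusp5, 1 point for each of 72 comparisons, coloured by depot, with equality dashed. The Dusp4 points are all positive on both axes, above the dashed line for much of BAT and below it for much of EWAT, whereas the Dusp5 points lie near 0 on the y axis (-0.47 to 0.46).

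Baseline levels under vehicle were taken over both days and are given without a test. Dusp4 had a median of 896.85 in BAT of db/db-chow mice, 1329 in WT-HFD mice and 657.05 in WT-chow mice, and in the WAT depots it lay between 248.75 (EWAT, WT-chow) and 619.25 (IWAT, db/db-chow). Dusp6 in BAT had medians of 504.65, 2154 and 750.55 in the same order of models, and it was 1136.5 to 1401.5 in IWAT, 392.65 to 986 in EWAT and 478.35 to 615.25 in RPWAT. Dusp5 in BAT had medians of 321.7, 96.67 and 57.565, and its other medians ran from 157.7 (EWAT, WT-chow) to 616.45 (IWAT, WT-chow). Dusp1 ran from 1053 (EWAT, WT-chow) to 3973 (IWAT, db/db-chow).

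The other MAP kinase phosphatases measured were Dusp2, Dusp7, Dusp8, Dusp9, Dusp10 and Dusp16, and they did not move as a group. Averaged over all comparisons, Dusp9, an ERK-selective cytoplasmic phosphatase related to Dusp6, rose by 0.92 in IWAT, 1.25 in EWAT and 1.19 in RPWAT (adjusted p = 4.6e-07, 4.3e-21 and 5e-21) but fell by 0.27 in BAT (adjusted p = 2.4e-05). The BAT fall was at dim signal (mean log2 intensity 4.34), with 5 of 18 single comparisons called lower (against 5.11% of all probe set tests there). Higher calls numbered 3 of 18 in IWAT (changes of -0.55 to 2.78, against 2.24% of all probe set tests there), 11 in EWAT (1.2%) and 10 in RPWAT (1.49%). In BAT, Dusp8 and Dusp16, which prefer JNK and p38, fell by 0.67 and 0.43, and Dusp10 fell by 0.82, so that 4 of 6 fell and none rose there. In the WAT depots 1 of 6 rose in each and 0 to 1 fell. Of all probe sets, 14.1% were called higher and 16.7% lower for the BAT average, and between 5.09% and 7.76% in either direction for a WAT depot. The median change of the 6 was -0.35 in BAT, 0.02 in IWAT, 0.00 in EWAT and -0.04 in RPWAT, while that of all probe sets was between -0.0016 and 0.013.

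Genes that act in FGF receptor and ERK feedback or are known ERK targets were listed apart from the phosphatases. Of 18, 7 rose and 4 fell in BAT, 6 rose and 3 fell in IWAT, 3 rose and 4 fell in EWAT, and 4 rose and 4 fell in RPWAT. Of all probe sets, 14.1% rose and 16.7% fell in BAT, and between 5.09% and 7.76% did either in a WAT depot. Spry4, a sprouty protein that restrains receptor signalling to RAS, rose by 0.80 in BAT, 1.42 in IWAT, 1.24 in EWAT and 1.26 in RPWAT. Maff, a small MAF transcription factor, rose by 1.28, 1.24 and 1.19 in the 3 WAT depots. Etv5, an ETS factor, rose by 0.56, 0.22, 0.27 and 0.19, and Spred1 and Spred2, which inhibit RAS activation, rose by 0.57 and 0.56 in BAT. Lif, a cytokine, fell by 0.43 in IWAT and 0.25 in EWAT.

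Of 15 measured components of the cascade from receptor to ERK, 1 rose and 6 fell in BAT, 2 rose and 2 fell in each of IWAT and EWAT, and 2 fell in RPWAT. The adaptor Gab1 fell by 0.37, 0.17, 0.20 and 0.16 in the 4 depots, and in BAT the receptor Fgfr1 fell by 0.25 and Klb, which encodes β-Klotho, by 0.24. Of 11 p38 and JNK kinases and their activators, 3 rose and 2 fell in BAT, 3 rose and 1 fell in IWAT, and 2 rose and 2 fell in each of EWAT and RPWAT. Map2k6, which activates p38, fell by 1.44 in BAT, 0.44 in IWAT, 0.50 in EWAT and 0.55 in RPWAT. Of 22 immediate early transcription factors, 0 rose and 12 fell in BAT (median -0.30), 5 rose and 2 fell in IWAT, 9 rose and 5 fell in EWAT, and 5 rose and 8 fell in RPWAT. Jun fell by 1.2 in BAT and 0.38 in RPWAT, Egr1 rose by 0.87 in EWAT, and Fosl1 rose by 1.001 in IWAT. Of 9 glucocorticoid-induced genes, 5 rose in each depot and 2, 2, 0 and 1 fell. All counts of this paragraph are to be read against the shares of all probe sets called for the average. These were 14.1% higher and 16.7% lower in BAT, and 5.09% to 7.76% for either direction in a WAT depot.

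Markers of the other cell types of these depots also shifted in the averages. Among all probe sets the shares called were 14.1% higher and 16.7% lower in BAT, and 5.09% to 7.76% for either direction in a WAT depot. Of 7 endothelial markers, 5 fell and 1 rose in BAT, 7 fell in IWAT, 5 in EWAT and 3 in RPWAT. Of 6 macrophage markers, 5 fell in BAT and 1 in RPWAT. Of 8 brown adipocyte markers, 6 rose and 1 fell in BAT, 5 rose in IWAT, 2 rose and 2 fell in EWAT and 3 rose in RPWAT. Of 6 adipocyte markers, 1 rose and 2 fell in BAT, and 1, 4 and 3 rose in the WAT depots. Their part in the changes of the phosphatase genes was not tested, and no value in the data was at 0.

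Across the 468 arrays, after each array's vehicle mean of the same depot, model and day was subtracted, the gene most like Dusp4 of 21930 was Spry4 (Pearson's r = 0.86), followed by Orc6l (0.72), 6530401D17Rik (0.69), Dfna5h (0.68) and Rcl1 (0.67). The gene most like Dusp6 was Dusp4 (0.65), then Spry4 (0.61), Prkce (0.58), 9030611O19Rik (0.57) and Eif1a (0.57). Dusp5 was most like B4galt5 (0.68), Rab20 (0.62), Slc9a3r1 (0.57), Il1rn (0.57) and B3gnt2 (0.56). Dusp1 was most like Cyr61 (0.61), Rhob (0.56), Errfi1 (0.54), Apold1 (0.53) and Ctgf (0.53), of which Cyr61 and Ctgf encode secreted matricellular proteins. Among the members themselves r was -0.32 between Dusp1 and Dusp4, 0.18 between Dusp1 and Dusp5, -0.17 between Dusp4 and Dusp5, and -0.07 both between Dusp1 and Dusp6 and between Dusp5 and Dusp6. These values describe arrays that share depots, mice and vehicle means, and no p is given.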

How the data were processed

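RNA of 4 adipose depots was amplified and hybridised to custom Affymetrix mouse arrays, 1 array per sample. The authors summarised and normalised probe signals with RMA in Rosetta Resolver, separately for each depot and model, and deposited linear intensity values for 43681 probe sets on 468 arrays. The software's version is not given in the sources used here, and a present-call filter of the methods was not applied. Intensities ran from 1.653 to 22400, and the number of arrays limits the precision. Gene symbols came from the platform annotation, which names 30342 probe sets. Intensities were converted to log2 and fitted in limma 3.58.1 (R 4.3.3) with a mean for each of 24 groups per depot and a trended prior. Depots were compared in a fit of all 96 groups. P-values were Benjamini-Hochberg adjusted over all probe sets of each contrast, and 0.05 was the threshold. The average effect of FGF21 in a depot was taken over models, days and treatments. The fits were tested on simulated data.

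The members and gene lists were chosen with earlier results of these data known. Values on every array are given for the called contrasts with the largest rise and fall of each member in each depot and for 2.5 mg/kg at 2 d in WT-chow mice. From each list up to 4 genes with the smallest adjusted p in a depot are named. The genes most alike are the 5 with the highest Pearson correlation over all arrays. Alternatives were other normalisation, filters, weights, tests, probe sets, a replicate block and leaving out arrays.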

Additional observations from a re-analysis of the deposited data

Results flagged for a closer look

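The screen for outlying arrays covered 54 groups of 4 or 5 arrays, not every group of each gene. Of these, 4 had an array far from the others, and chance alone marks about 1 group in 20. Dusp5 in RPWAT of WT-chow mice at 2 d read 160 in replicate 2 with PEG30-FGF21 Q108 at 2.5 mg/kg, while the others read 123.3 to 126.7, and 514.6 in replicate 4 with vehicle, while the others read 127 to 218.4. Dusp6 at the same dose in WT-chow mice read 2548 in replicate 3 of IWAT at 2 d (others 1918 to 2054) and 1082 in replicate 2 of RPWAT at 5 d (others 795.1 to 855). Groups that are not listed here also held an array apart. Dusp5 in BAT of WT-HFD mice with WT FGF21 at 5 d read 468 in replicate 1, while the others read 172.2 to 189.6.

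The response differed between 5 d and 2 d in BAT for Dusp1 (-1.14, adjusted p = 0.019) and Dusp5 (-1.37, adjusted p = 0.043) in db/db-chow mice at 2.5 mg/kg, and for Dusp6 (0.81, adjusted p = 0.0053) in WT-HFD mice with WT FGF21. It differed between db/db-chow and WT-chow mice at 5 d of 2.5 mg/kg for Dusp4 in EWAT (-1.35) and RPWAT (-1.42), for Dusp5 in BAT (-1.62) and for Dusp6 in IWAT (-0.87) and EWAT (-0.79).

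Between BAT and a WAT depot, the response to 2.5 mg/kg differed for Dusp1 against EWAT of db/db-chow mice at 5 d (-0.77). For Dusp4 it differed against IWAT in WT-chow mice at 5 d (-1.35), in WT-HFD mice at 5 d (-1.24) and 2 d (-1.21) and in db/db-chow mice at 2 d (-0.93). Against EWAT and RPWAT at 5 d it differed by -0.95 and -1.23 in WT-chow mice and by -0.99 and -1.20 in WT-HFD mice. For Dusp5 it differed at 5 d in db/db-chow mice against IWAT (-1.13) and EWAT (-1.06). For Dusp6 it differed at 5 d in WT-chow mice against IWAT (-0.50) and, in db/db-chow mice, against EWAT at 5 d (0.52) and against IWAT (0.54), EWAT (0.69) and RPWAT (0.70) at 2 d. All of these come from limma, with adjusted p at or below 0.05. The Dusp4 and Dusp5 values are those of the main probe set. The Dusp4 and Dusp6 differences against IWAT of db/db-chow mice at 2 d include vehicle replicate 2 of IWAT, 1 of the arrays that stood apart. For Dusp4 this array read 344.8, while the other vehicle arrays there read 595.4 to 790. These differences are given only with it.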

How the results depend on the processing

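The averages of Dusp4 and Dusp6 stayed called and positive in every depot under all alternatives run, at 1.05 to 2.07 for Dusp4 and 0.35 to 0.61 for Dusp6. The methods' ANOVA at an unadjusted p under 0.05 and 1.2-fold gave 11 calls for Dusp1, 23 for Dusp5 and 12 dose differences. The share of all probe sets passing this unadjusted rule is not given here, so these counts are not read as a result about the genes. After Benjamini-Hochberg adjustment the ANOVA gave 37 calls for Dusp4, 4 for Dusp5, 17 for Dusp6 and 0 dose differences. Dose differences also numbered 0 without dim probe sets, within 1 depot and model, or with the other probe sets, 3 with array weights and 2 when both IWAT arrays apart from the rest were dropped. Day differences numbered 5 with array weights and within 1 depot and model. With the other probe sets, 1 Dusp5 call and 8 depot differences were made, and the Dusp5 averages became 0.051 in IWAT, 0.085 in EWAT and 0.015 in RPWAT. The changes with WT FGF21 at 5 d became -0.029 in IWAT and -0.010 in BAT of WT-HFD mice and 0.073 in EWAT of WT-chow mice. Those in BAT at 5 d became -0.10 at 0.75 mg/kg in WT-HFD mice, and 0.20 at 0.75 mg/kg and 0.0078 at 2.5 mg/kg in db/db-chow mice. The averages of Dusp1 in RPWAT (-0.15) and BAT (-0.20) did not reach 1.2-fold or an unadjusted p under 0.001.

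Leaving out each replicate number in turn gave 5 to 10 calls for Dusp5, 0 to 2 dose, 0 to 2 day, 3 to 4 model and 6 to 11 depot differences (fewest without replicate 5), averages for Dusp1 of -0.18 to -0.10 in RPWAT (call lost without replicate 1, 3 or 5) and -0.24 to -0.15 in BAT (lost without 1 or 5), and 0.13 to 0.26 for Dusp5 in BAT. Between treatments of a depot, which are different mice, same-numbered arrays did not deviate together (mean correlation -0.03 to 0.01), and with the number as a replicate block 1 of 43 Dusp6 calls and no call of the other genes was lost. Between depots of a group they did slightly (0.061, against -0.015 for different numbers), a hint from the data that a number may mark a mouse, and that block gave 27 depot differences, with all 16 among them. The cause of these shifts was not tested.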
